A study of Arabidopsis thaliana with 12 samples.

Results

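In Arabidopsis thaliana seedlings, 205 genes moved in opposite directions under valinomycin, a peptide-like ionophore that lets potassium ions cross membranes, and under the bacterium Pseudomonas syringae pv. tomato DC3000, written DC3000 here. Of these, 167 stood higher with valinomycin and lower with DC3000 than in mock, and 38 stood lower with valinomycin and higher with DC3000. They were chosen by the mock, valinomycin and DC3000 values, from the 20233 genes of the deposited table by group means of log2(FPKM + 1), where FPKM is fragments per kilobase of transcript and per mega (M) fragments, a unit inferred from the values because the table names none. A gene was a member if its overall mean was at least 1 FPKM, which 18048 genes reached, and if it differed from mock by at least 0.6 in 1 direction with valinomycin and by at least 0.6 in the other with DC3000. Differences among those 3 groups are therefore a description, without a test. The libraries that received both treatments had no part in the choice beyond the mean of 1 FPKM, and they carry the tests.

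The 12 libraries were made from leaf of seedlings aged 2 to 3 weeks, which had been vacuum infiltrated 6 h before sampling. There were 4 groups of 3 libraries, which were mock, 10 µM valinomycin, DC3000, and the same valinomycin concentration together with DC3000. No genotype, mutation or transgene is named for any group, nor is a bacterial dose. The labels do not say whether the 3 libraries of a group came from separate plants, and the p-values then describe only how these libraries vary. Every adjusted p below comes from limma with Benjamini-Hochberg adjustment over the 18048 genes and stands beside a log2 difference ± its standard error, while a group mean stands with its SD (n = 3).

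Plant cells sense bacteria through receptors at the cell surface, and this pattern-triggered immunity raises calcium signalling, ethylene synthesis, secretion to the wall and a set of WRKY-regulated genes within hours. DC3000 injects effector proteins that interfere with these responses and makes coronatine, which mimics jasmonate and switches on jasmonate-driven genes. Glucosinolates are sulfur-rich defence compounds of the cabbage family: the aliphatic ones are built from methionine by chain elongation, a core pathway and side-chain modification, and the indolic ones from tryptophan. Touch-induced genes and heat shock genes are fast stress responders that rise within minutes of handling, heat or damage to protein folding.

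The libraries summed to 1057472 to 1350272 FPKM, and no counts came with the table, so the depth behind single values is unknown. The leaf mesophyll markers RBCS1A, CAB1, CAB2, RCA and GAPA were the most abundant of the marker genes, with mock means of 785 ± 47.2 to 15720.0 ± 1902 FPKM, and of the 4 root markers 1 had values and 0 reached the mean of 1 FPKM. All 5 leaf markers fell with both treatments against mock. LHY, a morning gene of the circadian clock, averaged 266 ± 52.9 FPKM in mock, 9.13 ± 7.23 under valinomycin, 1.3 ± 0.699 under DC3000 and 2.83 ± 1.05 with both, and the part of clock phase in the results below was not tested. In bulk RNA, fewer cells of a type and less RNA per cell cannot be told apart. Some libraries stood apart. Over the 167 genes the median log2 difference from the mock mean was 1.71 and 1.35 in valinomycin replicates 1 and 2. It was 0.56 in valinomycin replicate 3. Over the 38 genes the same libraries stood at -1.02, -1.12 and -0.53. DC3000 replicates 1, 2 and 3 stood at 1.55, 1.66 and 0.74 over the 38 genes and at -1.1, -1.04 and -0.79 over the 167. Mock replicate 3 was at -0.31 over the 38 genes, against 0.12 and 0.11 in mock replicates 1 and 2. Without valinomycin replicate 3 all 205 genes still met the rule, as did further genes, 216 and 54 in all.

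Opposite movement was rare beside shared movement. Both differences subtract the same mock means, which by itself favours shared movement, and the size of that part was not tested. Of the 18048 genes, 3017 (16.72%) were past 0.6 upwards under both single treatments and 1339 (7.419%) were past it downwards under both, against 167 (0.9253%) and 38 (0.2105%) in the opposed quadrants. The valinomycin difference of the 167 genes ran from 0.60 to 3.65 with a median of 1.22, and their DC3000 difference from -3.12 to -0.60 with a median of -0.94. In the 38 genes valinomycin ranged from -2.80 to -0.60 (median -0.84) and DC3000 from 0.64 to 4.61 (median 1.27). Over all tested genes the medians were 0.27 with valinomycin and 0.18 with DC3000. Scaling the libraries by the median of gene ratios moved those 2 medians by -0.27 and -0.18, and 153 and 58 genes then met the rule, of which 117 and 34 were among the members here. In 120 of the 167 genes the valinomycin, mock and DC3000 libraries did not overlap at all, as in 1.59% of tested genes, and the same held in the reverse order for 25 of the 38, as in 0.371% of tested genes. These counts follow from the rule and are no support for it.

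**Figure D1:**
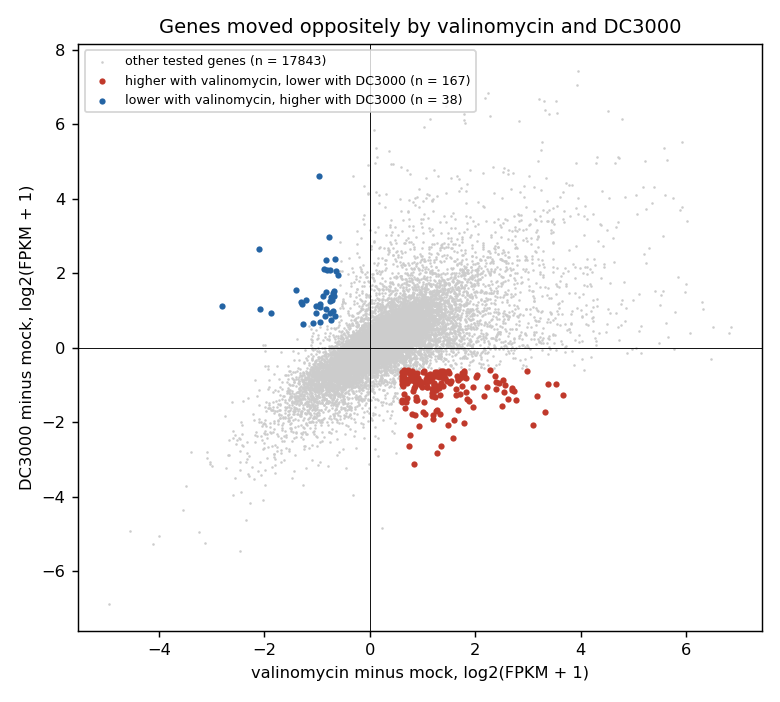
Each point is 1 of 18048 genes, with the valinomycin minus mock difference on the x axis and the DC3000 minus mock difference on the y axis, both of group means of log2(FPKM + 1). The 167 genes higher with valinomycin and lower with DC3000 fill the lower right and the 38 reversed genes the upper left, away from the band of genes that moved the same way.

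The limit of 0.6 cut through a continuous spread. Just inside it lay RAV2, an AP2/B3 transcription factor, at 2.27 with valinomycin and -0.60 with DC3000, and AT4G36850, annotated as a PQ-loop protein, at 0.60 and -0.98. Just outside were AT3G03000, an EF-hand calcium-binding protein, at 0.60 and -1.01, and PYL4, an abscisic acid receptor, at 0.60 and -1.02, both a little under 0.6 before rounding. On the reverse side BCAT4 (-0.60 and 1.95) and CLC-B (-1.26 and 0.64) were inside, and AT5G63530 (-1.15 and 0.59) and AT3G12920 (-0.59 and 0.70) outside.

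With both treatments given together, the 167 genes sat near their valinomycin level and the 38 genes about midway. In limma, 161 of the 167 were higher than with DC3000 alone, where 14.1% of all tested genes were, and 0 were lower, where 13.5% were. Against valinomycin alone 0 were higher and 35 (20.96%) were lower, where 4.72% and 10.4% of tested genes were. Against mock 81 (48.5%) were higher and 1 lower, where 37.2% and 23.1% were. That leaves 129 genes that differed from DC3000 and did not pass the test against valinomycin, 32 that differed from each single treatment, 3 that differed from valinomycin only and 3 from neither. The count against valinomycin depended on single libraries. It was 97 without valinomycin replicate 3, when 9.01% of tested genes were lower. It was 18 without valinomycin replicate 1, valinomycin replicate 2 or replicate 1 of both treatments, when 10.9%, 6.18% and 5.81% of tested genes were. Without replicate 3 of both treatments it was 15, when 5.73% were. Since members were picked for high valinomycin and low DC3000 values, both of these comparisons lean in the direction seen by the choice alone. The median difference was 0.65 against mock, -0.50 against valinomycin and 1.76 against DC3000, beside 0.17, -0.12 and -0.06 over all tested genes.

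Of the 38 genes, 28 were higher than with valinomycin alone and 0 lower, and 30 were lower than with DC3000 alone and 0 higher, in limma, where 4.72% of tested genes were higher than with valinomycin and 13.5% lower than with DC3000. These genes were picked for low valinomycin and high DC3000 values, so each of the 2 comparisons leans in the direction seen by the choice alone. Against mock 11 (28.95%) were higher and 5 (13.16%) lower, both shares under those of all tested genes given above. A total of 21 differed from each single treatment, 9 from DC3000 only, 7 from valinomycin only and 1 from neither. Their median difference was 0.34 against mock, 1.19 against valinomycin and -1.14 against DC3000.

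A position was computed for each gene, as the difference of both treatments from valinomycin divided by the difference of DC3000 from valinomycin, so that 0 is the valinomycin level and 1 the DC3000 level. The 167 genes had a median position of 0.22 with quartiles of 0.11 and 0.35, while mock lay at a median of 0.54. Of them 149 lay nearer the valinomycin level, 18 nearer the DC3000 level, and 20 beyond the valinomycin level. In the 3 libraries with both treatments the medians were 0.26, 0.04 and 0.35, and the second library was thus closest to valinomycin. The 38 genes had a median position of 0.50 with quartiles of 0.41 and 0.67, with mock at 0.44, and 0.58, 0.48 and 0.51 in the 3 libraries. They split evenly, with 19 nearer each level. Without valinomycin replicate 3 the 2 medians were 0.32 and 0.54. The median of the 167 ranged from 0.13 without valinomycin replicate 1 to that 0.32 as single libraries were left out.

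**Figure D2:**
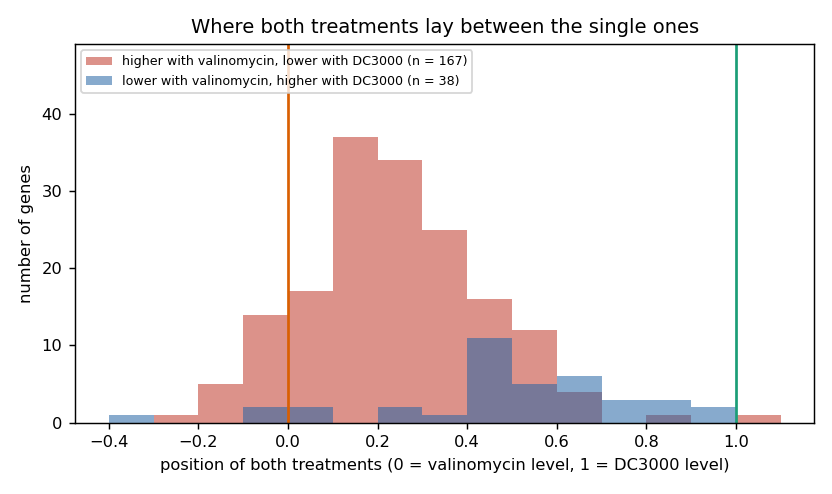
Histogram of the position of both treatments between the single ones (x axis, 0 is the valinomycin level and 1 the DC3000 level, orange and green lines) against the number of genes (y axis). The 167 genes peak between 0.1 and 0.3 and the 38 genes between 0.4 and 0.5.

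**Figure D3:**
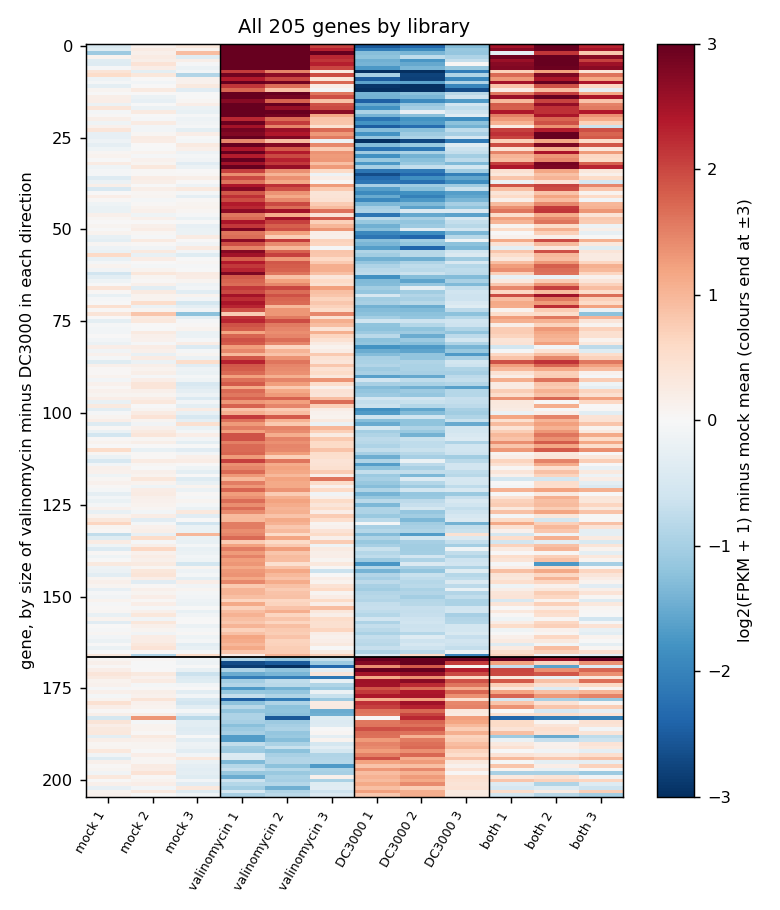
Each row is 1 of the 205 genes, each column 1 of the 12 libraries, and the colour is log2(FPKM + 1) minus the mock mean, with colours ending at ±3. The upper block holds the 167 genes and the lower block the 38, and valinomycin replicate 3 is paler than replicates 1 and 2 in each block.

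Among the 167 genes XTH18 and XTR6, of cell wall remodelling, had the widest gaps between valinomycin and DC3000. Xyloglucan endotransglucosylases cut and rejoin wall polymers as cells expand, and 5 of the 19 tested genes with that annotation were among the 167 and 0 among the 38. XTH18 (chr4:14825757-14827211 of TAIR10.1, minus strand) had 9.83, 15.2 and 17.5 FPKM in the mock libraries, 210.5, 157 and 60.3 with valinomycin, 1.57, 1.88 and 5.04 with DC3000 and 82, 123 and 71.9 with both. The first 3 groups did not overlap, and every library with both treatments was above every mock library. With both treatments XTH18 was higher than mock by 2.62 ± 0.40 (limma adjusted p = 6.73e-05) and higher than DC3000 by 4.68 ± 0.40 (limma adjusted p = 4.55e-06), on the log2 scale. Its difference from valinomycin was -0.48 ± 0.40 (limma adjusted p = 0.456). XTR6, another enzyme of this family, went from 4.21, 7.01 and 6.28 FPKM in mock to 122, 72.9 and 32.3 with valinomycin, 0.569, 0.802 and 2.04 with DC3000 and 44.2, 71.2 and 36.9 with both, again with no overlap of the first 3 groups. Both treatments raised XTR6 against mock by 2.89 ± 0.39 (limma adjusted p = 1.87e-05).

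The TCH genes are named for their induction by touch. TCH4, also a xyloglucan endotransglucosylase, had the most negative DC3000 difference of the 167 genes, -3.12. It had 75.3, 87.1 and 55.9 FPKM in mock, 237, 133 and 68.3 with valinomycin, 5.81, 6.51 and 10.3 with DC3000 and 84.3, 137 and 59.4 with both. All 3 DC3000 libraries were far below mock, whereas valinomycin replicate 3 and the libraries with both treatments overlapped it. Against DC3000 alone the libraries with both treatments were higher by 3.42 ± 0.38 (limma adjusted p = 3.31e-05), and against mock the difference was 0.30 ± 0.38 (limma adjusted p = 0.51). TCH3, a calmodulin-like calcium sensor at chr2:17137037-17139700 on the plus strand, read 140.5, 173 and 212 FPKM in mock, 767, 558 and 201 with valinomycin, 22.1, 20.1 and 43.9 with DC3000 and 312, 649 and 267 with both. As with TCH4, valinomycin replicate 3 fell inside the mock range. The rise over DC3000 was 3.76 ± 0.43 (limma adjusted p = 4.78e-05). AT2G41105, a neighbouring locus of unknown product, overlaps an exon of TCH3 on the opposite strand. Whether reads were counted by strand is not given in the sources used here, so the reads of such pairs cannot be told apart. An exon overlap of this kind was present in 43 of the 167 and 8 of the 38 genes, beside 5462 of the 18048 tested genes. Among the members with such an overlap were HSP101, CRK10, CRK11, SOBIR1, LYM2, ZAR1, DTX1, STP1, AT5G02760, AT5G04175 and AT4G18203 of the 167. Of the 38 they included TT4, IMD1, BCAT4, CLC-B and SVB.

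XTH30 and XTH19 were less abundant. XTH30 had 8.78, 10.0 and 8.81 FPKM in mock, 25.8, 20.9 and 12.1 with valinomycin, 3.01, 5.34 and 5.71 with DC3000 and 16.3, 18.5 and 15 with both, and its rise over mock was 0.78 ± 0.24 (limma adjusted p = 0.0116). XTH19, the neighbour of XTH18, had 3.05, 3.43 and 3.33 FPKM in mock, 10.1, 8.22 and 4.79 with valinomycin, 0.366, 1.49 and 1.86 with DC3000 and 4.86, 8.26 and 3.25 with both, and its difference from mock, which did not pass, was 0.52 ± 0.31 (limma adjusted p = 0.16). All 5 genes of the family were higher with both treatments than with DC3000, and 3 of the 5 were higher than mock. Of all 167 genes 161 and 81 were, and of tested genes 14.1% and 37.2%. AGP1, an arabinogalactan protein of the cell surface, had 16.6, 18.2 and 15.3 FPKM in mock, 144, 86.7 and 42.3 with valinomycin, 7.13, 6.39 and 9.23 with DC3000 and 32.8, 46.9 and 25.3 with both. It fell below valinomycin and stayed above mock with both treatments, with differences of -1.23 ± 0.33 (limma adjusted p = 0.0216) and 0.98 ± 0.33 (limma adjusted p = 0.0179). A list of 78 tested cell wall genes, matched by symbol and without XTR6 and TCH4, held 4 members, all in the group of 167. Of the 78, 35 were past 0.6 downwards under both single treatments.

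**Figure D4:**
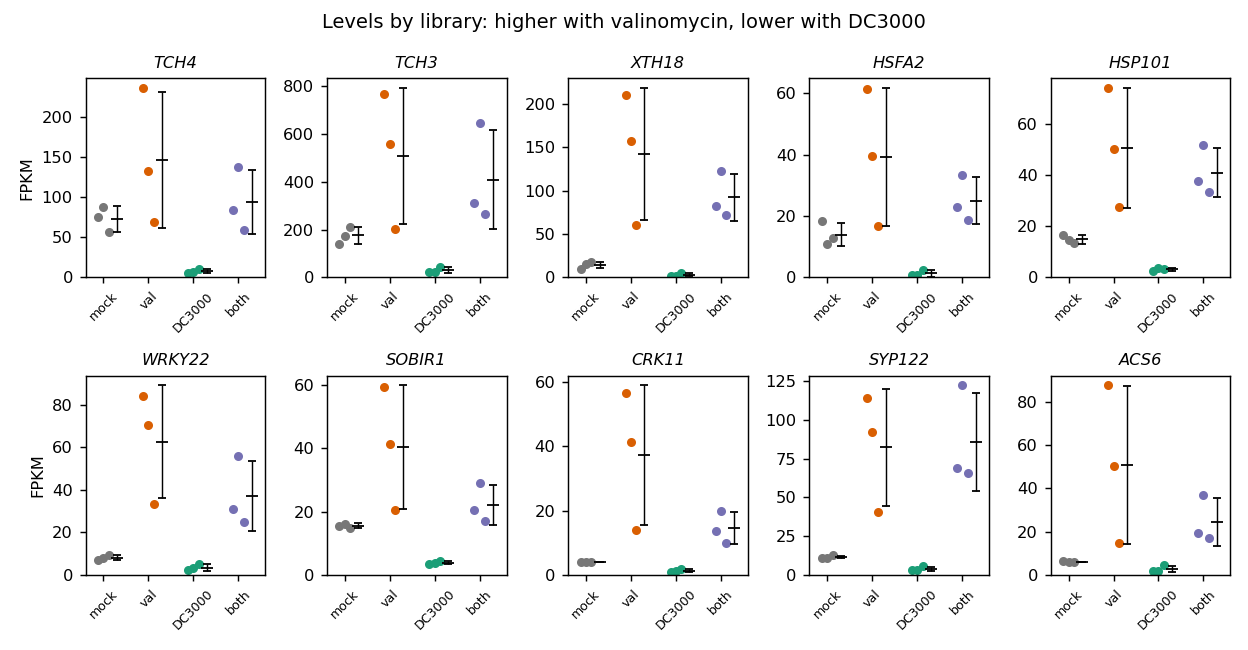
FPKM (y axes, linear, from 0) of 10 genes that were higher with valinomycin and lower with DC3000, by group, with 1 point per library and bars for the mean and SD of 3 libraries. DC3000 libraries are the lowest in every panel, and the libraries with both treatments lie above them in every panel.

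Heat shock genes divided. Of 140 tested genes annotated as heat shock proteins, heat shock factors or cochaperones, 7 were among the 167 and 0 among the 38. All 7 were higher with both treatments than with DC3000, as were 161 of all 167 and 14.1% of tested genes. HSFA2, the heat-inducible factor that prolongs the heat shock response, sits at chr2:11135624-11137792 on the plus strand. It had 18.2, 10.8 and 12.7 FPKM in mock, 61.5, 39.7 and 16.5 with valinomycin, 0.55, 0.685 and 2.39 with DC3000 and 23, 33.4 and 18.6 with both. DC3000 libraries lay below all others, and valinomycin replicate 3 within the mock range. The difference of both treatments from DC3000 was 3.61 ± 0.40 (limma adjusted p = 3.29e-05), and from mock 0.79 ± 0.40 (limma adjusted p = 0.0981). HSP101, the disaggregase that rescues clumped proteins, had 16.7, 14.4 and 13.3 FPKM in mock, 74.2, 50.1 and 27.4 with valinomycin, 2.46, 3.57 and 3.36 with DC3000 and 37.7, 51.7 and 33.5 with both. Here the 3 choosing groups did not overlap, and the rise of both treatments over mock was 1.39 ± 0.27 (limma adjusted p = 0.000522).

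The HSP70 chaperone AT3G12580 read 26.2, 17.8 and 17.9 FPKM in mock, 174, 129.8 and 83.4 with valinomycin, 5.06, 9.5 and 11.5 with DC3000 and 72.2, 96.7 and 61.8 with both. It too separated the groups, and with both treatments it exceeded mock by 1.85 ± 0.29 (limma adjusted p = 7.65e-05). AT5G48570, an FKBP-type isomerase that acts as a cochaperone, rose against mock by 2.12 ± 0.27 (limma adjusted p = 9.48e-06). HSFA7A, another heat shock factor, had 8.34, 9.84 and 10.8 FPKM in mock, 24.6, 16.3 and 14.1 with valinomycin, 2.86, 4.35 and 4.16 with DC3000 and 11.1, 12.8 and 12.2 with both, and its difference from mock did not pass, at 0.29 ± 0.20 (limma adjusted p = 0.213).

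Most of the heat shock list was not opposed. Of its 26 tested genes 5 were members, 16 were past 0.6 upwards with valinomycin, 5 upwards with DC3000 and 7 downwards with DC3000. HSP17.6A, a small heat shock protein, averaged 1.17 ± 0.493 FPKM in mock, 109 ± 41.7 under valinomycin and 2.44 ± 0.703 under DC3000, so that it was not lower with DC3000. HSP90.1, the heat-inducible HSP90 chaperone, averaged 12.6 ± 1.07 FPKM in mock, 185 ± 71.7 under valinomycin and 12 ± 4.91 under DC3000. AT-HSFB2B, a repressor-type heat shock factor, was past 0.6 downwards with each single treatment. With both treatments 15 of the 26 were higher than mock and 4 lower, where 37.2% and 23.1% of tested genes were.

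A heat shock factor binds inverted GAA repeats, and the minimal pair GAANNTTC (read the same on each strand) was looked up in the 250 bases before the annotated start of each protein-coding gene. It was present in 26 of 155 windows of the group of 167 (16.77%), 2 of 36 of the group of 38 (5.556%) and 9.253% of the 17119 windows of tested genes. HSFA2 and HSFA7A were the only 2 members with more than 1 match. The other members annotated as heat shock genes, HSP101, HSP70, AT1G59860, AT2G20560 and AT4G21870, had 0 matches, as had AT5G48570. The windows of HSFA2 and HSFA7A are printed from the RefSeq TAIR10.1 genome, 5′ to 3′ on the gene's strand, with the matches in capitals. They lie at chr2:11135374-11135623 on the plus strand for HSFA2 and chr3:19264891-19265140 on the plus strand for HSFA7A.
HSFA2: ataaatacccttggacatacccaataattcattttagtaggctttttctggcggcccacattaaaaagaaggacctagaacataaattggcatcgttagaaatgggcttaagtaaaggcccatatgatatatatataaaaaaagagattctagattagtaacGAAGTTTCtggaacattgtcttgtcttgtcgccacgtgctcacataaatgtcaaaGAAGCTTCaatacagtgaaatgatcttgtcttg
HSFA7A: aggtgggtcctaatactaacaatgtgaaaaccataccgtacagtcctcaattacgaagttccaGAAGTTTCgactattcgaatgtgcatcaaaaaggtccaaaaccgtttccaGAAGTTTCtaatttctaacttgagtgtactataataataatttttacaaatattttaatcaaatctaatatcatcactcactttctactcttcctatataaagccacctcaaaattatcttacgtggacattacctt
A match of letters is a description and not evidence of binding.

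Receptors and regulators of immunity were also among the 167 genes. Receptor-like kinases sense microbial or internal signals at the cell surface. Of the 160 tested genes so annotated, 13 were among the 167 and 0 among the 38. All 13 were higher with both treatments than with DC3000, 5 higher than mock and 6 lower than valinomycin. Of all 167 genes 161, 81 and 35 were so called, and of tested genes 14.1%, 37.2% and 10.4%. SOBIR1, a kinase that partners receptor-like proteins, lies at chr2:13554870-13556977 on the plus strand. It had 15.6, 16.2 and 14.8 FPKM in mock, 59.4, 41.3 and 20.5 with valinomycin, 3.36, 3.7 and 4.27 with DC3000 and 20.5, 29.1 and 16.9 with both. Mock was tight, DC3000 far below it and all valinomycin libraries above it. With both treatments SOBIR1 was 2.25 ± 0.29 (limma adjusted p = 9.88e-05) over DC3000, and 0.45 ± 0.29 (limma adjusted p = 0.183) over mock, which did not pass. An antisense RNA locus that is itself a member, AT2G08475, overlaps it on the opposite strand. SERK4, a coreceptor related to BAK1, had 8.41, 9.94 and 10.1 FPKM in mock, 21.8, 18 and 9.78 with valinomycin, 4.75, 4.3 and 4.58 with DC3000 and 11.1, 14.7 and 9.62 with both. In SERK4 the valinomycin and mock ranges overlapped.

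Some receptor genes lay near mock with both treatments and below valinomycin. AT4G08850, a leucine-rich repeat receptor kinase, had 17.6, 18.4 and 13.9 FPKM in mock, 75.6, 59.2 and 34 with valinomycin, 5.47, 7.29 and 8.87 with DC3000 and 17.6, 24.5 and 14.7 with both. Its difference from valinomycin was -1.48 ± 0.26 (limma adjusted p = 0.0019), and that from mock, which did not pass, was 0.16 ± 0.26 (limma adjusted p = 0.625). LYM2, a chitin-binding LysM protein, had 13.6, 13.3 and 12.3 FPKM in mock and 13.9, 16.6 and 13.1 with both, and was lower than with valinomycin, at -1.03 ± 0.23 (limma adjusted p = 0.00874). HAE, the receptor kinase of floral organ shedding, was also lower than with valinomycin, at -0.82 ± 0.17 (limma adjusted p = 0.00483).

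Cysteine-rich receptor-like kinases, many of which are induced by pathogens and oxidants, had 3 neighbouring members. CRK10, CRK11 and CRK12 span chr4:12137995-12148041. CRK11 had 3.93, 3.98 and 3.93 FPKM in mock, 56.5, 41.4 and 13.8 with valinomycin, 0.883, 1.07 and 1.77 with DC3000 and 13.7, 19.8 and 10.0 with both, with no overlap of mock, valinomycin and DC3000. It rose over mock by 1.60 ± 0.37 (limma adjusted p = 0.00191) with both treatments. CRK10 had 10.4, 13.5 and 11.9 FPKM in mock and 10.4, 16.1 and 7.94 with both, next to 38.1, 27.3 and 12.4 with valinomycin and 1.87, 1.68 and 2.54 with DC3000. Its difference from mock was -0.10 ± 0.31 (limma adjusted p = 0.809) and that from valinomycin -1.03 ± 0.31 (limma adjusted p = 0.0403). CRK10 and CRK11 overlap each other on opposite strands. With CRK2 and WAKL2, a wall-associated kinase-like gene whose exons overlap another gene on its strand, they made up the 5 members among 51 tested genes of this list, of which 22 were past 0.6 upwards with valinomycin and 16 downwards with DC3000.

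Nucleotide-binding disease resistance proteins detect effectors inside the cell. Among the 91 tested, 8 were in the group of 167 and 0 in the group of 38. All 8 were higher with both treatments than with DC3000, 4 were higher than mock and 2 lower than valinomycin. The counts for all 167 genes were 161, 81 and 35, and the shares of tested genes 14.1%, 37.2% and 10.4%. AT5G41740 had 3.31, 3.42 and 2.72 FPKM in mock, 44.3, 20.6 and 9.54 with valinomycin, 0.965, 1.14 and 1.51 with DC3000 and 10.7, 21.6 and 9.04 with both, and rose against mock by 1.74 ± 0.40 (limma adjusted p = 0.00161). It showed the largest valinomycin difference of the 8. ZAR1, which forms a calcium-permeable resistosome, had 14.3, 18.4 and 17.8 FPKM in mock, 55.7, 39.7 and 25.3 with valinomycin, 9.2, 9.22 and 11.7 with DC3000 and 27.8, 32 and 21.4 with both, a rise over mock of 0.65 ± 0.23 (limma adjusted p = 0.0272). RPM1, which guards the immune regulator RIN4 and whose exons overlap another gene on its strand, was less abundant, with 2.44, 2.68 and 1.96 FPKM in mock, 7.09, 4.96 and 2.8 with valinomycin, 0.838, 0.664 and 1.01 with DC3000 and 2.36, 2.51 and 1.74 with both. Its libraries with both treatments lay near mock and below valinomycin, at -0.84 ± 0.23 (limma adjusted p = 0.0235). RIPK, a kinase that phosphorylates RIN4, was instead above mock by 1.46 ± 0.23 (limma adjusted p = 7.4e-05).

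Members also included signalling and regulatory genes downstream of receptors, whose order of valinomycin, mock and DC3000 was set by the rule. WRKY22, a transcription factor of the flagellin-triggered kinase cascade at chr4:522530-524249, had 7.0, 8.05 and 9.41 FPKM in mock, 84.2, 70.7 and 33.1 with valinomycin, 2.18, 3.04 and 5.12 with DC3000 and 30.9, 55.7 and 24.7 with both. No group overlapped mock. The rise over mock with both treatments was 1.98 ± 0.34 (limma adjusted p = 0.000162). It was the only member among 39 tested WRKY genes, of which 16 were past 0.6 upwards under both single treatments. ACS6, which makes the ethylene precursor, had 6.2, 5.91 and 5.84 FPKM in mock, 87.7, 50.2 and 14.7 with valinomycin, 1.67, 1.94 and 4.55 with DC3000 and 19.4, 37 and 17 with both, and rose over mock by 1.78 ± 0.48 (limma adjusted p = 0.00482). It was the only member among 21 tested ethylene genes. MYB51, a regulator of indolic glucosinolate genes, had 3.68, 4.99 and 3.28 FPKM in mock, 10.2, 11.9 and 9.39 with valinomycin, 1.32, 1.34 and 1.16 with DC3000 and 7.33, 10.0 and 5.89 with both, and rose over mock by 0.80 ± 0.19 (limma adjusted p = 0.00186).

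In the list of cell-surface receptors and early immunity, 3 of 28 tested genes were members (WRKY22, SOBIR1 and SERK4), 21 were past 0.6 upwards with valinomycin and 6 downwards with DC3000. Others on the list stood higher under each single treatment: FRK1, a classic marker of flagellin signalling, averaged 0.0554 ± 0.0257 FPKM in mock, 5.91 ± 2.97 under valinomycin and 0.928 ± 0.60 under DC3000, and BAK1, the shared coreceptor, 10.5 ± 1.07, 37.1 ± 11.9 and 15.3 ± 1.82. With both treatments 19 of the 28 were higher than mock, 20 were higher than DC3000 and 0 lower than DC3000. Of all tested genes 37.2%, 14.1% and 13.5% were.

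WRKY factors bind the W-box, searched here as TTGACC or TTGACT on either strand. It was found in 71 of 155 windows of the group of 167 (45.81%), in 10 of 36 of the group of 38 (27.78%) and in 27.79% of tested windows. No test was made of these shares. CRK11, with 4 matches at chr4:12143859-12144108 on the minus strand, is shown with 2 regulators that had several matches, CMPG1 at chr1:24636946-24637195 and SZF1 at chr3:20775970-20776219, both on the plus strand.
CRK11: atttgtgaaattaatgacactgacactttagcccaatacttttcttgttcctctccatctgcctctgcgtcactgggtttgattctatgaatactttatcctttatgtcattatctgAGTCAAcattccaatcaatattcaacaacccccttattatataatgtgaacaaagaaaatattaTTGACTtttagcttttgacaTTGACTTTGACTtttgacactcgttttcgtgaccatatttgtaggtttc
CMPG1: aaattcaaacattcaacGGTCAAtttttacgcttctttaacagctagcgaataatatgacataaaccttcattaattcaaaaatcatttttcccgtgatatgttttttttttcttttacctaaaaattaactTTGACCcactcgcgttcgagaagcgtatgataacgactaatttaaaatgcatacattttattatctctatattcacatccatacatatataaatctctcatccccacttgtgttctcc
SZF1: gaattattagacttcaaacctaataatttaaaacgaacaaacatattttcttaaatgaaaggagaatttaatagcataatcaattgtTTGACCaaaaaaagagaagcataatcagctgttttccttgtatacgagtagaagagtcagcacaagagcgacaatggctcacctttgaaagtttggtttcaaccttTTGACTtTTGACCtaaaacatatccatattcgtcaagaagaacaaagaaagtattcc
Capitals mark the W-boxes. CMPG1, an elicitor-induced ubiquitin ligase, had 4.32, 7.43 and 8.13 FPKM in mock, 48, 27.4 and 11.9 with valinomycin, 1.38, 2.11 and 3.69 with DC3000 and 12.9, 28.1 and 12.3 with both. SZF1, a zinc finger protein of the salt response, had 20.9, 27.4 and 21.1 FPKM in mock, 184, 102 and 41.8 with valinomycin, 5.87, 6.41 and 9.18 with DC3000 and 48.3, 89.7 and 38.4 with both. In each of these genes all valinomycin libraries were above all mock libraries and all DC3000 libraries below them, and the rises over mock with both treatments were 1.24 ± 0.42 (limma adjusted p = 0.0196) for CMPG1 and 1.23 ± 0.41 (limma adjusted p = 0.0174) for SZF1.

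Of 42 tested syntaxin and exocyst genes, 3 were among the 167 and 0 among the 38. These 3 were higher than mock with both treatments, as were 81 of all 167 and 37.2% of tested genes. SYP121 and SYP122, plasma membrane syntaxins, and EXO70B2, an exocyst subunit, carry defence cargo to the wall. SYP122 (chr3:19425632-19427230) had 11.1, 10.9 and 12.5 FPKM in mock, 114, 92.2 and 40.2 with valinomycin, 3.11, 3.1 and 5.58 with DC3000 and 69.1, 122 and 65.4 with both. The libraries with both treatments overlapped the valinomycin libraries and lay above all of mock. SYP122 was above mock by 2.74 ± 0.33 (limma adjusted p = 5.93e-06) and above DC3000 by 4.11 ± 0.33 (limma adjusted p = 2.89e-06), and the difference from valinomycin was 0.13 ± 0.33 (limma adjusted p = 0.838). SYP121 had 19.7, 20.5 and 22.3 FPKM in mock, 75.5, 58.9 and 28 with valinomycin, 8.22, 8.43 and 10.7 with DC3000 and 35.8, 53.1 and 34.2 with both, and its rise over mock was 0.92 ± 0.28 (limma adjusted p = 0.0101). EXO70B2 had 3.57, 4.65 and 4.73 FPKM in mock, 28.9, 18.9 and 8.48 with valinomycin, 2.71, 1.87 and 2.42 with DC3000 and 19.7, 29.3 and 16 with both, a rise over mock of 2.06 ± 0.32 (limma adjusted p = 7.17e-05). None of the 3 passed against valinomycin, and their median position was -0.03.

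Of 441 tested genes annotated as membrane transporters, 9 were among the 167 and 4 among the 38. Single members with roles in transport and detoxification are described here. ABCC3, a transporter of glutathione conjugates, had 8.63, 9.55 and 5.97 FPKM in mock, 198, 128 and 41.7 with valinomycin, 2.85, 4.28 and 3.72 with DC3000 and 66.2, 112 and 57.5 with both, and had the largest rise over mock with both treatments among the 167 genes, 3.10 ± 0.41 (limma adjusted p = 1.7e-05). DTX1, an efflux carrier for toxic compounds, rose by 2.52 ± 0.35 (limma adjusted p = 2.68e-05). DIC2, a mitochondrial dicarboxylate carrier, had 11.4, 9.62 and 9.98 FPKM in mock, 62.9, 30.2 and 14.6 with valinomycin, 1.02, 1.33 and 3.25 with DC3000 and 12.5, 28 and 6.26 with both. The DIC2 libraries with both treatments scattered on each side of mock, with a difference of 0.32 ± 0.48 (limma adjusted p = 0.583). GSTF8, a glutathione transferase of early defence whose exons overlap another gene on its strand, had 139, 135 and 114 FPKM in mock and 129, 212 and 108 with both, a difference of 0.16 ± 0.31 (limma adjusted p = 0.681). ERD5, the mitochondrial proline dehydrogenase, lay furthest beyond the valinomycin level of the 167, at a position of -0.21, with 154, 95.2 and 39.1 FPKM with valinomycin and 117, 139.5 and 92.5 with both. In the list of mitochondrial stress and detoxification, 3 of 24 tested genes were members, while 12 were past 0.6 upwards with each single treatment.

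Among the genes with the widest gap between valinomycin and DC3000 were some with little annotation. AT1G07135, a small glycine-rich protein, had 5.59, 8.58 and 8.64 FPKM in mock, 140.4, 82.6 and 36.6 with valinomycin, 2.14, 1.51 and 4.14 with DC3000 and 50.0, 85.5 and 34.2 with both. AT3G45730, of unknown product, had 14.8, 17.5 and 13.4 FPKM in mock, 147, 141 and 64.2 with valinomycin, 3.88, 5.22 and 6.39 with DC3000 and 109.5, 123 and 105 with both. Both separated mock, valinomycin and DC3000 without overlap and rose over mock with both treatments, by 2.66 ± 0.42 (limma adjusted p = 7.2e-05) and 2.81 ± 0.26 (limma adjusted p = 4.36e-07). AT1G19020, whose exons overlap a neighbour on the same strand, and the noncoding AT5G04175 rose by 3.04 ± 0.47 (limma adjusted p = 6.38e-05) and 2.04 ± 0.48 (limma adjusted p = 0.00214). ATCG00880, the only chloroplast member, had 49.4, 118 and 202 FPKM in mock, 2385, 974 and 1043 with valinomycin, 43.4, 40.3 and 47.1 with DC3000 and 85.7, 471 and 187 with both. Its valinomycin libraries were the highest by far, its libraries with both treatments varied widely, and its difference from valinomycin was -2.77 ± 0.54 (limma adjusted p = 0.00395).

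A smaller set lay nearer to DC3000 when both treatments were given. AT5G02760, a protein phosphatase 2C, had 10.2, 12.6 and 7.23 FPKM in mock, 20.2, 24 and 32.1 with valinomycin, 4.44, 7.06 and 6.57 with DC3000 and 6.4, 6.38 and 11.6 with both. It was below valinomycin, at -1.56 ± 0.25 (limma adjusted p = 0.000996), and the difference from DC3000 was 0.35 ± 0.25 (limma adjusted p = 0.317). AT3G25600, a calcium-binding protein, and AT4G18203, of unknown product, were the other two that differed from valinomycin and did not pass against DC3000. Their differences from valinomycin were -0.90 ± 0.20 (limma adjusted p = 0.00858) and -1.62 ± 0.42 (limma adjusted p = 0.0193). AT1G66910, a protein kinase, was the 1 gene of the 167 that was lower than mock with both treatments, at -0.45 ± 0.17 (limma adjusted p = 0.0312). It had 5.01, 3.98 and 3.35 FPKM in mock, 7.6, 6.53 and 7.62 with valinomycin, 1.31, 1.53 and 2.09 with DC3000 and 2.4, 3.09 and 2.7 with both.

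The 38 genes that were lower with valinomycin and higher with DC3000 were led by glucosinolate synthesis. Of 20 tested aliphatic glucosinolate genes, 10 were members and 0 were in the group of 167; 10 were past 0.6 downwards with valinomycin and 18 upwards with DC3000. With both treatments 12 of the 20 were higher than with valinomycin, 13 lower than with DC3000, 10 higher than mock and 1 lower. Of all tested genes 4.72%, 13.5%, 37.2% and 23.1% were. The list was chosen with earlier results of these data known, so the count describes it and is no independent evidence.

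Chain elongation begins with BCAT4, a transaminase of methionine. BCAT4 (chr3:6846969-6849582) had 10.9, 10.2 and 7.26 FPKM in mock, 4.78, 3.39 and 11.3 with valinomycin, 42.1, 50.3 and 27.9 with DC3000 and 25.2, 17.3 and 16.2 with both. All DC3000 libraries were above all others, while valinomycin replicate 3 was above all mock libraries. BCAT4 was higher with both treatments than mock by 0.97 ± 0.32 (limma adjusted p = 0.0169). IMD1, the dehydrogenase of the elongation cycle, had 17, 17.2 and 11.9 FPKM in mock, 6.4, 6.29 and 13.2 with valinomycin, 69.1, 85.7 and 53.8 with DC3000 and 35.7, 28.9 and 31.2 with both. With both treatments it lay between the single ones, above valinomycin by 1.84 ± 0.25 (limma adjusted p = 0.000221) and below DC3000, at -1.08 ± 0.25 (limma adjusted p = 0.00539). The isomerase subunits IPMI1 and IPMI2 did not pass against mock. IPMI1 had 6.39, 4.93 and 2.61 FPKM in mock, 1.29, 1.84 and 5.41 with valinomycin, 23.8, 30.2 and 13.7 with DC3000 and 8.7, 6.2 and 4.64 with both. IPMI2 had 7.49, 7.37 and 5.1 FPKM in mock, 1.39, 2.13 and 7.09 with valinomycin, 17.3, 21.2 and 11.6 with DC3000 and 5.72, 3.68 and 3.94 with both. MAM1, the condensing enzyme of the cycle, was no member: it averaged 21.4 ± 5.23 FPKM in mock, 20.7 ± 10.6 under valinomycin and 102 ± 16.4 under DC3000.

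The core pathway followed. CYP79F1, which turns elongated methionine into aldoximes, had 7.06, 6.68 and 3.0 FPKM in mock, 1.25, 1.45 and 7.06 with valinomycin, 34.5, 37.5 and 23.7 with DC3000 and 23.9, 21.9 and 15.3 with both. Valinomycin replicates 1 and 2 were the lowest, and replicate 3 was level with the highest mock library. With both treatments CYP79F1 was above mock by 1.74 ± 0.40 (limma adjusted p = 0.00178) and above valinomycin by 2.57 ± 0.40 (limma adjusted p = 0.000848), and its difference from DC3000, which did not pass, was -0.62 ± 0.40 (limma adjusted p = 0.269). CYP83A1, the next enzyme, had 28.3, 23 and 17.4 FPKM in mock, 7.37, 11.1 and 25 with valinomycin, 47, 55.7 and 32.9 with DC3000 and 27.9, 29.6 and 20.9 with both, and passed none of the 3 comparisons. GSTU20, a glutathione transferase of the pathway, had 53.7, 64.7 and 35.1 FPKM in mock, 8.19, 10.9 and 22.7 with valinomycin, 106, 118 and 69 with DC3000 and 34.3, 24.8 and 22 with both. It was below mock with both treatments, at -0.88 ± 0.32 (limma adjusted p = 0.0272), while CYP79F1 was above. SOT17 and SOT18, sulfotransferases of the last core step, were no members: their DC3000 differences were 1.2 and 2.05 and their valinomycin differences -0.47 and -0.16.

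Side-chain oxidation and regulation completed the set. FMO GS-OX1, an S-oxygenase, had 2.96, 1.9 and 1.46 FPKM in mock, 0.523, 0.431 and 1.31 with valinomycin, 8.09, 9.15 and 5.89 with DC3000 and 3.53, 2.18 and 3.19 with both, with no overlap of mock, valinomycin and DC3000. MYB29, a regulator of the aliphatic pathway, had 6.48, 5.58 and 3.69 FPKM in mock, 1.88, 2.26 and 5.1 with valinomycin, 22.5, 21.8 and 9.29 with DC3000 and 7.15, 7.77 and 4.82 with both. Valinomycin replicate 3 overlapped mock in MYB29 too, and its difference with both treatments from DC3000 was -1.24 ± 0.33 (limma adjusted p = 0.0127). MYB28, its close relative, was no member, with means of 13.2 ± 4.08 FPKM in mock, 12.6 ± 4.01 under valinomycin and 15.5 ± 3.7 under DC3000.

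**Figure D5:**
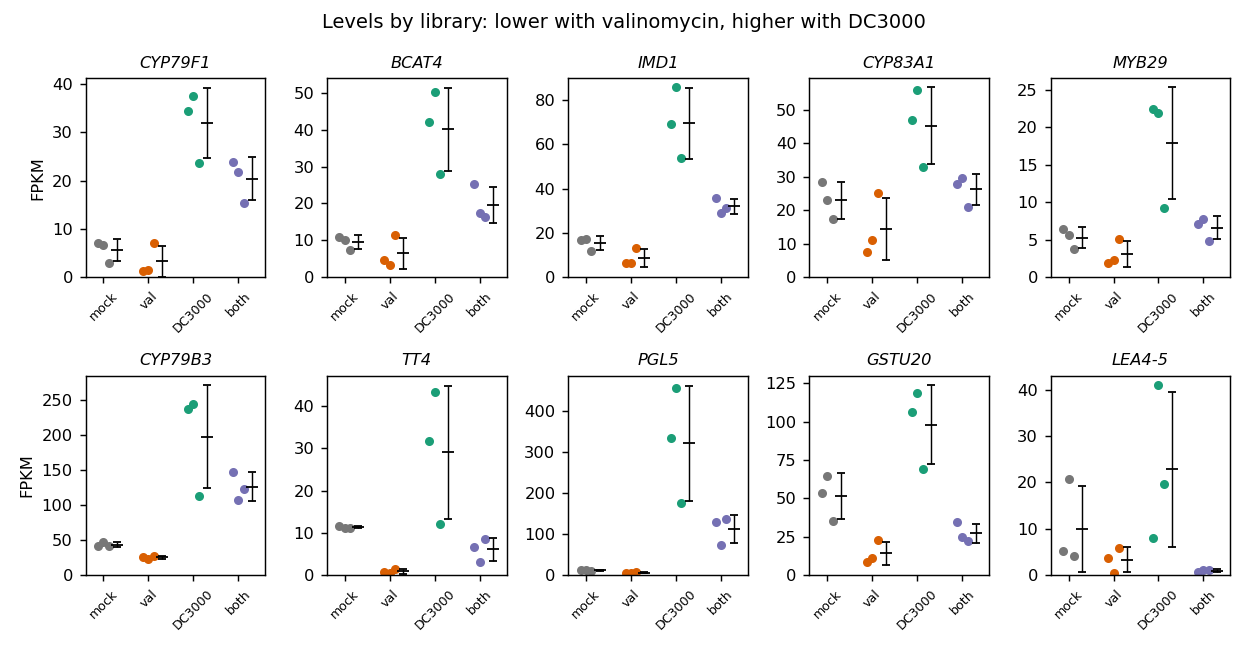
FPKM (y axes, linear, from 0) of 10 genes that were lower with valinomycin and higher with DC3000, by group, with 1 point per library and bars for the mean and SD of 3 libraries. DC3000 has the highest mean in every panel; in the upper row valinomycin replicate 3 is the highest valinomycin point.

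Of 18 tested genes for indolic glucosinolates, camalexin and tryptophan, 1 was a member in each direction, while 9 were past 0.6 upwards under both single treatments. CYP79B3, which converts tryptophan to indole aldoxime, lies at chr2:9488413-9491404 on the plus strand and had 41.4, 47 and 40.8 FPKM in mock, 25.8, 22.6 and 26.8 with valinomycin, 236, 243 and 112 with DC3000 and 147, 107 and 123 with both. Here all 3 valinomycin libraries were below mock. With both treatments it was above mock by 1.51 ± 0.24 (limma adjusted p = 7.15e-05) and above valinomycin by 2.27 ± 0.24 (limma adjusted p = 2.44e-05). Its paralogue CYP79B2 averaged 12.4 ± 2.11 FPKM in mock, 12 ± 4.93 under valinomycin and 45.7 ± 12.2 under DC3000, so it was not lower with valinomycin, and the regulator MYB51 was in the group of 167 as described above. MYB34, another indolic regulator, averaged 9.85 ± 2.41, 7.47 ± 3.09 and 58.9 ± 21.7 FPKM in the same order. Of the 18 tested genes of this list 17 were higher than mock with both treatments, where 37.2% of tested genes were.

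Flavonoid synthesis gave 2 of its 8 tested genes. TT4, chalcone synthase and the entry enzyme, had 11.6, 11.2 and 11.2 FPKM in mock, 0.721, 0.339 and 1.41 with valinomycin, 31.7, 43.5 and 12.1 with DC3000 and 6.62, 3.04 and 8.55 with both. Its valinomycin difference, -2.80, was the most negative of the 38 genes, and DC3000 replicate 3 was only just above mock. With both treatments TT4 was above valinomycin by 1.91 ± 0.38 (limma adjusted p = 0.00459) and below DC3000, with a difference of -2.01 ± 0.38 (limma adjusted p = 0.0018). UGT78D1, a flavonol rhamnosyltransferase, had 16.7, 15.5 and 12.9 FPKM in mock, 5.39, 7.68 and 7.75 with valinomycin, 35.9, 37.7 and 18.9 with DC3000 and 14.4, 12 and 12.2 with both, so that mock, valinomycin and DC3000 did not overlap and both treatments overlapped mock. Of the 8 genes 6 were past 0.6 downwards with valinomycin, and 3 were past it in each direction with DC3000.

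PGL5, a 6-phosphogluconolactonase of the pentose phosphate pathway, had the widest gap. It had 11.9, 11.7 and 10.3 FPKM in mock, 5.33, 4.39 and 6.33 with valinomycin, 333, 456 and 175 with DC3000 and 128, 72.8 and 135 with both. No 2 groups overlapped. With both treatments it rose over mock by 3.16 ± 0.29 (limma adjusted p = 4.86e-07) and over valinomycin by 4.11 ± 0.29 (limma adjusted p = 6.6e-07), and was below DC3000, at -1.46 ± 0.29 (limma adjusted p = 0.00243). AT3G28270, a putative membrane protein, followed with 40.5, 36 and 32.7 FPKM in mock, 4.78, 5.53 and 16.5 with valinomycin, 249.5, 323 and 159 with DC3000 and 84.6, 58.3 and 93.9 with both. FLR1, a leucine-rich repeat protein, had 9.8, 8.39 and 7.05 FPKM in mock, 3.96, 3.14 and 6.79 with valinomycin, 87.8, 93.1 and 47.1 with DC3000 and 36.3, 23.4 and 30.3 with both. In each of these genes mock, valinomycin and DC3000 did not overlap, and the rises over mock were 1.07 ± 0.35 (limma adjusted p = 0.0154) for AT3G28270 and 1.71 ± 0.27 (limma adjusted p = 8.03e-05) for FLR1. AT5G23820, a lipid recognition protein, and OFP1, an ovate family regulator, rose over mock by 1.46 ± 0.27 (limma adjusted p = 0.000364) and 0.59 ± 0.20 (limma adjusted p = 0.0176). The transporters AT3G21670 and AT2G40460 were called against each single treatment and not against mock, with differences from mock of 0.15 ± 0.22 (limma adjusted p = 0.563) and -0.01 ± 0.23 (limma adjusted p = 0.973).

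A few of the 38 genes were lower than mock with both treatments. LEA4-5, a late embryogenesis abundant protein of dry tissue, had 5.06, 20.7 and 3.99 FPKM in mock, 3.57, 0.484 and 5.8 with valinomycin, 7.96, 40.9 and 19.6 with DC3000 and 0.673, 1.02 and 1.12 with both. Mock replicate 2 and DC3000 replicate 2 were far above their own groups, and the groups overlapped. With both treatments the gene was low in every library, at -2.17 ± 0.61 (limma adjusted p = 0.00687) from mock and -3.36 ± 0.61 (limma adjusted p = 0.00132) from DC3000. MLP423, a major latex protein-like gene, had 16.2, 24.6 and 19.8 FPKM in mock, 5.59, 8.64 and 16.1 with valinomycin, 64.5, 41.9 and 32.1 with DC3000 and 8.81, 6.31 and 11.4 with both, and was below mock, at -1.12 ± 0.32 (limma adjusted p = 0.00701). MS2, a methionine synthase, differed from mock by -0.80 ± 0.21 (limma adjusted p = 0.0039). SVB, a protein with a domain of unknown function, differed by -1.01 ± 0.23 (limma adjusted p = 0.00162). With GSTU20 these were the 5 of the 38 that were lower than mock.

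The G-box CACGTG, bound by basic helix-loop-helix and bZIP factors, was in 8 of 36 windows of the 38 genes (22.22%), 12 of 155 of the 167 (7.742%) and 7.53% of tested windows. The ACGTG core that is contained in it was in 44.44%, 25.81% and 23.48%. The 3 G-box windows shown are those of genes described above, PGL5 at chr5:8338033-8338282 on the minus strand, TT4 at chr5:4488226-4488475 on the plus strand and CYP83A1 at chr4:7992430-7992679 on the minus strand, with the G-box in capitals.
PGL5: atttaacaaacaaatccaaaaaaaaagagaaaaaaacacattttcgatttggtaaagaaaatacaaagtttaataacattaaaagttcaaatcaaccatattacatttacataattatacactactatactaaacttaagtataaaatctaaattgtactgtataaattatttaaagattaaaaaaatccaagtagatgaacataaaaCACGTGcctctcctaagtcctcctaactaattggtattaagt
TT4: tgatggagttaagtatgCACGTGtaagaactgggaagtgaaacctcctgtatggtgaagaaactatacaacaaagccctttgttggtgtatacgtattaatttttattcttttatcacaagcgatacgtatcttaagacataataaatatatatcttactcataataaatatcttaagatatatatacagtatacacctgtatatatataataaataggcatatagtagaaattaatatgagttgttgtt
CYP83A1: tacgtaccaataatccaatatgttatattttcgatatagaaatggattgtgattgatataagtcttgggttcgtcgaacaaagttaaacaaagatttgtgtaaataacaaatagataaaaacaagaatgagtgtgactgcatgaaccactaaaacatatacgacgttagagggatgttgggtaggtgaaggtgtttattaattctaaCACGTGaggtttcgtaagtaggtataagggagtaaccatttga
The G-box in PGL5 and CYP83A1 is near the end of the window that joins the gene, and in TT4 near its far end. Of the aliphatic glucosinolate members CYP83A1 alone had a G-box. The rapid stress response element CGCGTT, added after the data were seen, was in 5.806% of windows of the 167, 2.778% of the 38 and 2.71% of tested genes, and the GCC-box GCCGCC in 1.935%, 0% and 1.969%.

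Gene features are given beside those of all tested genes, without a test. Apart from the mock level, the rule did not use them. The median transcript was 1717 bases long in the 167, 1732.5 in the 38 and 1700 over tested genes. Genes with a single exon made up 33.73%, 21.05% and 16.77%. The 167 genes comprised 155 protein-coding and 7 long noncoding loci with the rest of other types, and the 38 comprised 36 and 2. Median mock levels, which entered the rule and are shaped by it, were 10.1, 11.3 and 6.83 FPKM. There were 12 pairs of adjacent protein-coding members among the 167 and 0 among the 38. They included XTH18 and XTH19, CRK10 and CRK11, CYP71A22 and CYP71A21, and the resistance genes AT5G41740 and AT5G41750. CYP706A1 and CYP706A2, 2 genes apart, have near-identical transcripts, as do AT1G17990 and AT1G18020, and reads could have been divided between them.

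Some lists held no member, which with 0.9253% and 0.2105% of tested genes in the 2 opposed quadrants is near the share over all genes for lists of this size. None of 29 tested jasmonate genes, 16 salicylic acid genes, 19 clock genes or 47 photosynthesis genes was opposed: 25 of the 29 jasmonate genes were past 0.6 upwards under both single treatments, and 16 of the 47 photosynthesis genes downwards under both. Of 30 lists 17 held members, which took in 29 of the 167 and 13 of the 38 genes. Cytochromes P450 held 4 members in 1 direction (CYP706A1, CYP706A2, CYP71A21 and CYP71A22) and 3 in the other (CYP79F1, CYP79B3 and CYP83A1) among 99 tested. CYP706A1 had 13.9, 12.4 and 12.5 FPKM in mock and 32.4, 47.5 and 28.3 with both, a rise of 1.38 ± 0.23 (limma adjusted p = 0.000133). Single members from other lists were CRF5, a cytokinin response factor, which rose over mock with both treatments by 1.1 ± 0.24 (limma adjusted p = 0.00104), NAC036, which rose by 1.15 ± 0.20 (limma adjusted p = 0.000167), and STP1, a monosaccharide carrier, at 0.23 ± 0.20 (limma adjusted p = 0.341). Lists were matched by symbol or synonym. AT5G51190 and AT1G22190, annotated as integrase-type DNA-binding proteins, were members outside the list of CRF5.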

How the data were processed

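The members were 205 genes whose mock, valinomycin and DC3000 values met the rule given above; these members, the 30 gene lists and the product groups were chosen with earlier results of these data known. RNA was extracted with RNeasy Plant Mini and libraries prepared by the CORALL kit for total RNA, per the labels' protocols. Reads were placed on TAIR10, per the submitters' processing notes. Neither aligner nor quantifier nor strandedness of counting is named in the sources used here. No unit is stated in the deposited table. FPKM was inferred from the deposited values, since library totals differ and exceed those of a table in transcripts per M fragments. No deposited value is 0, but some are next to it, such as 6.939e-65 for the member AT2G08485 in DC3000 replicate 2. Genes absent from the table were not analysed here, and the depth is unknown.

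Values were taken as log2(FPKM + 1), which understates changes of low genes. Genes averaging 1 FPKM or more over the 12 libraries entered 1 limma 3.58.1 fit (R 4.3.3; group means of 12 libraries, 8 residual degrees of freedom, empirical Bayes with a mean trend), with calls where the p adjusted by Benjamini-Hochberg was under 0.05. The fit was tested on simulated data. Named genes were the 12 members per direction with the widest valinomycin minus DC3000 gap, up to 3 members per list, the 4 largest called differences per direction and comparison, the 2 nearest genes on each side of the limits, and the marker genes; other genes in the text, among them TCH4, SYP121, EXO70B2, CMPG1, SZF1, HSFA7A, CYP83A1, ZAR1 and RPM1, were chosen after their values were seen. Positions, sequences and exon overlaps (bedtools 2.31.1) are those of RefSeq TAIR10.1, in which all 20054 nuclear loci were found by locus tag. Near-identical copies were sought with blastn 2.17.0 (95% identity over 50% of the transcript). Motif windows are the 250 bases before the annotated start. Alternatives covered pseudocount, filter, scaling, limit, trend, replicate block and each library left out.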

Additional observations from a re-analysis of the deposited data

How the results depend on the processing

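The number of genes meeting the rule moved most in the direction of lower with valinomycin and higher with DC3000. It was 38 as reported, 67 with a pseudocount of 0.1, 58 with median-of-ratios scaling, 65 with a limit of 0.5 and 8 with a limit of 1. The other direction gave 167 as reported, and 52 with a limit of 1. The pseudocount of 0.1 reached the upper bound of 300 genes in all. The median position of the 38 genes was 0.57 with a pseudocount of 0.1. In the 167 genes, those lower than mock with both treatments numbered 0 at a minimum mean of 5 FPKM and 3 with median-of-ratios scaling, and those lower than valinomycin 22 with that scaling. In the 38 genes, those lower than mock numbered 8 with it. For that filter and that scaling the shares of all tested genes called are not given beside these counts. Leaving out single libraries gave 15 to 97 of the 167 lower than valinomycin and 0 to 2 lower than mock, 4 to 8 of the 38 lower than mock, and a median position of 0.13 to 0.32 for the 167 and 0.46 to 0.56 for the 38. Over all tested genes 1036 to 2216 were then lower than valinomycin and 3459 to 4665 lower than mock. Leaving out single libraries also gave 138 to 216 and 32 to 56 genes meeting the rule. The cause of these shifts was not tested. Scaling nuclear genes without ribosomal RNA loci to 1 total (this setting was chosen after seeing the data) gave 181 and 39 genes. No named gene reversed in 1125 values under other settings or 1944 with a library left out; 10 and 52 lost the call, and 4 and 34 gained it. Precision is limited by 3 libraries per group and an unknown depth.

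Replicate numbers did not pair the libraries: correlations of deviations from the group means ran from -0.242 to 0.439 for the 18 same-numbered pairs (median -0.036). With the replicate number as a block, 84 of the 167 genes were higher and 1 lower than mock. In that fit 39 were lower than valinomycin and 161 higher than DC3000. Of the 38, 12 were higher and 5 lower than mock, 27 higher than valinomycin and 29 lower than DC3000. The shares of all tested genes called in that fit are not given here, so a shift in overall calling cannot be told apart.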
